A study of Mus musculus with 12 samples.

Results

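The insulin-like growth factor (IGF) axis was followed in RNA-seq counts of adipose stromal cells from mice. They are the stromal vascular fraction, which remains once mature adipocytes are taken away. It was defined by gene symbol as 10 genes: the ligands Igf1 and Igf2, the receptors Igf1r and Igf2r, and the binding proteins Igfbp2, Igfbp3, Igfbp4, Igfbp5, Igfbp6 and Igfbp7. All 10 were found among the 24422 features of the count tables, and all 10 were among the 16713 genes that passed the filter on low counts.

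The 12 libraries of poly-T selected RNA form 4 groups of 3, and every mouse carried 1 knock-in allele of p21 (Cdkn1a), a cell cycle inhibitor switched on in stressed and senescent cells. The genotype p21+/mcherry was studied under both diets, standard (SD mCherry, libraries numbered 1, 2 and 3) and high-fat (HFD mCherry, libraries 15, 17 and 20). The genotypes p21+/mcherry-Tert (HFD Tert, replicates 25, 26 and 27) and p21+/mcherry-TertCi (HFD TertCi, replicates 30, 31 and 33) were studied on the high-fat diet only. In them the p21 promoter drives Tert, the catalytic subunit of telomerase, or TertCi, a form of it that lacks catalytic activity, so that the transgene is made where and when p21 is. No knock-in group was studied on the standard diet, so the diet effect is measured in the mCherry genotype alone. The labels name the high-fat diet control p21+/mcherry whereas the design text writes it as p21+/-, and the labels were followed. Sex, age, fat depot and batch are not in the labels, and neither is whether the libraries of a group came from separate animals; p-values therefore measure the spread between these libraries, which may be technical.

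IGF1 and IGF2 are secreted growth factors that act through the IGF1 receptor, a tyrosine kinase that feeds the same insulin receptor substrate and AKT relay as insulin does. The IGF2 receptor, which is also the mannose 6-phosphate receptor, has no kinase and carries IGF2 to the lysosome. IGF-binding proteins hold the ligands outside the cell, and proteases release them again. In adipose tissue IGF1 promotes the growth and differentiation of preadipocytes, and stromal cells and macrophages both make it.

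The transcripts of the binding proteins outweighed those of the ligands and receptors. Levels are given below as CPM, reads counted relative to the scaled library size, and as CPM per kilobase of exon (FPKM) wherever genes are set against each other. Over the 12 libraries mean FPKM was highest for Igfbp7 (639), a low-affinity binder of IGFs found in vessel walls and matrix, and for Igfbp6 (455), which prefers IGF2. Next came Igfbp4 (175), Igfbp5 (68.0), Igfbp3 (40.3) and Igfbp2 (33.8), then Igf2r (15.4), Igf1 (10.6), Igf2 (7.42) and Igf1r (5.18). Some neighbours in this order were clearly apart: Igfbp6 was above Igfbp4, and Igfbp4 above Igfbp5, in 12 of 12 libraries. Others were not separated beyond their spread: Igf1 was above Igf2 in 7 of 12 libraries and Igfbp3 above Igfbp2 in 8 of 12.

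Both of the most abundant binding proteins and the most variable one are shown with the 250 bases that precede their RefSeq transcription start (assembly GRCm38.p6), since the make-up of the binding protein pool and the level of Igfbp2 carry most of the description that follows. Capitals mark matches on either strand. The GC box was searched as the letters GGGCGG. For the TATA box the search used TATAAA.

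Igfbp7, chr5:77408046-77408295, minus strand: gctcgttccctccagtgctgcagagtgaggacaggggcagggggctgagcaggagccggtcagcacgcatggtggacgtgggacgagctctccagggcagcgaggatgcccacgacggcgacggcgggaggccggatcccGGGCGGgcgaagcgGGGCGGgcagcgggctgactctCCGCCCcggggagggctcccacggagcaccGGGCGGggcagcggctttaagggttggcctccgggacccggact
Igfbp6, chr15:102143936-102144185, plus strand: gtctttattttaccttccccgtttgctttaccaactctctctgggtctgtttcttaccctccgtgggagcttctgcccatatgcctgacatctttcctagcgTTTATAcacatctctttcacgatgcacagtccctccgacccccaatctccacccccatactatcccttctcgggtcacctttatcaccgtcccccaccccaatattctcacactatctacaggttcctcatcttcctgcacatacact
Igfbp2, first promoter, chr1:72824230-72824479, plus strand: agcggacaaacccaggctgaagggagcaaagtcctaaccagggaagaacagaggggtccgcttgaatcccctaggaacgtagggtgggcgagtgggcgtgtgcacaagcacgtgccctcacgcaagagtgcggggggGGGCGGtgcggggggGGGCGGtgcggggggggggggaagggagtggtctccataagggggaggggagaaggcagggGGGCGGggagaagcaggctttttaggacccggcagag

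The Igfbp7 window held 4 GC boxes and was 74.0% G and C, whereas the Igfbp6 window held none, had 1 TATA motif on the reverse strand and was 49.6% G and C. Igfbp2 held 3 GC boxes at 67.2% G and C. Searched on both strands, the GC box was found in 32.7% and the TATA motif in 12.4% of 32851 RefSeq promoter windows of the same length, whose median G and C content was 52.4%. These matches describe letters only.

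The gene models were taken from GENCODE M21 on GRCm38. Igf1 lies at chr10:87858265-87937042 (plus strand), Igf1r at chr7:67952827-68233668 (plus), and Igf2r at chr17:12682406-12769664 (minus), where the antisense transcript Airn overlaps it without sharing exonic bases. Igf2 lies at chr7:142650766-142666816 (minus), and 3694 of its exonic bases are shared with other genes, chiefly the readthrough model Gm49394. That model was not among the counted features. The antisense gene Igf2os, which shares far fewer bases with Igf2, was counted. How many Igf2 reads the overlaps touched was not tested. Igfbp2 (chr1:72824503-72852474, plus) and Igfbp5 (chr1:72857932-72874884, minus) are neighbours that face each other tail to tail with 5457 bases between their ends. The other binding proteins lie at chr11:7206086-7213923 (Igfbp3, minus), chr11:99041244-99054392 (Igfbp4, plus), chr15:102144362-102149511 (Igfbp6, plus) and chr5:77349240-77408041 (Igfbp7, minus, with 85 exonic bases shared with Polr2b).

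Libraries held 16430330 to 19486965 counts, and 16231 to 19147 features were detected in each. Marker lists of the expected cells were present: 12 of 12 adipose progenitor markers and 12 of 12 macrophage markers had counts, and Adipoq, a marker of mature adipocytes, was between 0.552 and 7.85 CPM. The summed list of 10 adipocyte markers was 416 to 673 CPM in SD mCherry, 1039 to 1910.5 CPM in HFD mCherry, 947 to 6399.9 CPM in HFD Tert and 1897 to 3656 CPM with TertCi. Its most abundant member in every library was Fabp4 (207 to 6132 CPM), a fatty acid-binding protein gene that capillary endothelial cells and macrophages also express. The part of these levels in the results was not tested. A list of 12 epididymis epithelium markers was also present, and its summed level differed widely inside every group: it ran from 3615 to 57325 CPM among SD mCherry libraries, from 216 to 18313 among HFD mCherry, from 58.6 to 21492 among HFD Tert and from 341 to 34075 among HFD TertCi. SD mCherry replicate 3 (57325 CPM) and HFD mCherry replicate 15 (18313 CPM) were the highest of their groups. HFD mCherry replicate 15 stood apart from replicates 17 and 20 of its group in most of the genes described here, and the values that moved most without it are given beside the comparisons.

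**Figure D1:**
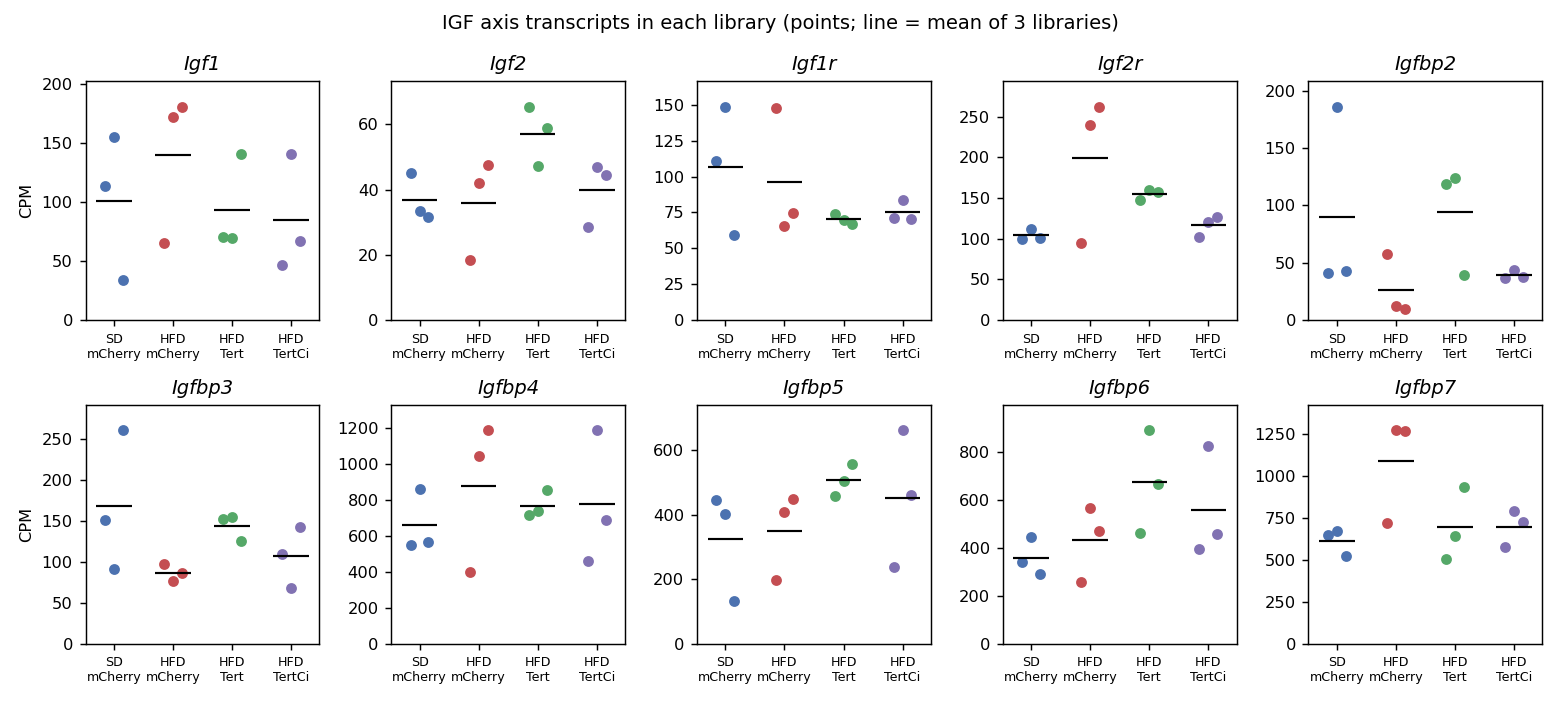
CPM of each of the 10 genes in each of the 12 libraries (y axis, from 0), by group (x axis); points are libraries and the line is the mean of 3. The HFD mCherry points of Igf2r and Igfbp7 split into 2 high libraries and 1 low one, while the HFD Tert points of Igf1r, Igf2r and Igfbp5 lie close together.

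Among the ligands, Igf1, the growth hormone-responsive ligand, varied more inside groups than between them. Its level was 114, 155 and 34.2 CPM in SD mCherry and 65.4, 172 and 181 CPM in HFD mCherry. It was 70.4, 69.8 and 140.3 CPM in HFD Tert and 47.0, 141 and 67.2 CPM in HFD TertCi. Every group spanned at least the gap between the lowest and the highest group mean (85.0 and 139 CPM), and all 4 groups overlapped. The diet difference was 0.46 ± 0.60 on the log2 scale (SE; 95% interval -0.86 to 1.79; edgeR quasi-likelihood test, adjusted p = 0.64).

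In 4 of 4 groups the library with the most Igf1 was the one with the lowest epididymis list, and the same held for Igfbp4. Of all genes tested, 5.66% showed this order. The mural list (pericyte and smooth muscle markers) was likewise lowest in those libraries. With the epididymis list as a covariate Igf1 was not called in any comparison. Here and below this covariate was the mean log2 CPM of the 10 list genes that passed the filter, not the summed CPM.

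Igf2, the imprinted fetal ligand that is expressed from the paternal allele, was steadier inside groups. It stood at 45, 33.4 and 31.6 CPM in SD mCherry and at 18.5, 41.9 and 47.5 CPM in HFD mCherry. In HFD Tert it stood at 65.4, 47.2 and 58.8 CPM and in HFD TertCi at 28.5, 46.9 and 44.6 CPM. The 3 HFD Tert libraries were above all 3 HFD TertCi libraries, with a log2 difference of 0.51 ± 0.34 (SE; edgeR, adjusted p = 1). They overlapped with HFD mCherry only through its replicate 20 (log2 difference 0.67 ± 0.34, edgeR adjusted p = 0.35).

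Among the receptors, Igf2r showed the smallest p in the F-test over the 4 groups (edgeR, adjusted p = 0.242). It was measured at 99.7, 113 and 101 CPM in SD mCherry and at 94.3, 240.0 and 262 CPM in HFD mCherry. The values were 148, 160.1 and 157 CPM in HFD Tert and 102, 121 and 127 CPM in HFD TertCi. SD mCherry, HFD Tert and HFD TertCi were each tight (SD 6.99, 6.62 and 12.8 CPM, n = 3), whereas HFD mCherry spread over all of them (SD 91.3 CPM). HFD Tert lay above SD mCherry and HFD TertCi without overlap. Against HFD TertCi, groups did not overlap for 5.13% of all genes. SD mCherry differs from HFD Tert in both diet and genotype, and no share of all genes was computed for that pair.

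Igf1r, the signalling receptor, had the opposite outliers. It stood at 111, 149 and 59.5 CPM in SD mCherry and at 148, 65.5 and 74.6 CPM in HFD mCherry, with the highest value of that group in replicate 15. Its knock-in libraries lay close together, at 74.0, 69.8 and 67.0 CPM in HFD Tert and 71.4, 84.0 and 70.1 CPM in HFD TertCi. It did not pass the test in any comparison (edgeR, adjusted p between 0.467 and 1).

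Igfbp7 was the only one of the 10 genes whose HFD mCherry libraries all lay above the SD mCherry libraries. Its level was 649, 669 and 523 CPM in SD mCherry against 721, 1270.4 and 1266 CPM in HFD mCherry. HFD Tert (507, 639 and 930.3 CPM) and HFD TertCi (574, 789 and 727 CPM) overlapped with both diet groups. The library of each group with the most Igfbp7 was also the one with the highest macrophage, endothelial, adipose progenitor and adipocyte lists, in 4 of 4 groups. All of these lists peaked in the same library of each group, so the order cannot tell these cell types apart. It was found for 7.98% of all genes with the macrophage, endothelial and progenitor lists.

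Igfbp6 had its highest values in the knock-in groups. SD mCherry gave 339, 446 and 290.1 CPM and HFD mCherry 259, 567 and 471 CPM. HFD Tert gave 461, 891 and 669 CPM and HFD TertCi 397, 825 and 459 CPM. The groups overlapped in each comparison with HFD mCherry. In 4 of 4 groups the library with the most Igfbp6 also had the highest mesothelial list, an order found for 1.18% of all genes.

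Igfbp2, a binding protein known from liver and from adipocytes, was the least even of the 10 genes, with counts from 161 to 3835. SD mCherry gave 40.8, 186 and 42.8 CPM and HFD mCherry 57.2, 12 and 9.62 CPM. HFD Tert gave 119, 124 and 39.4 CPM and HFD TertCi 36.9, 43.6 and 37.7 CPM. The highest value, SD mCherry replicate 2, was in the library with the highest mesothelial list of its group (1442 CPM), and both high HFD Tert libraries had mesothelial lists of 1256 and 1897 CPM. In HFD mCherry the mesothelial list was low throughout, at 323 to 354 CPM. Its member Wt1 went the other way, with its highest group mean there (98.6 CPM, against 34.1 in SD mCherry). The other members each had their lowest group mean in HFD mCherry. In SD mCherry the largest member was the keratin gene Krt19 (mean 462 CPM), while Msln had a mean of 42.3 CPM. Igfbp2 did not follow this list everywhere: HFD mCherry replicate 15 had 57.2 CPM at a list of 345 CPM, well above replicates 17 and 20, and the HFD TertCi libraries had 36.9 to 43.6 CPM at lists of 725 to 1143 CPM.

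Igfbp3, the main carrier of IGFs in blood, stood at 151, 90.7 and 260.0 CPM in SD mCherry and at 97.1, 76.8 and 86.4 CPM in HFD mCherry. Its level was 152, 154 and 125 CPM in HFD Tert and 109, 67.9 and 142 CPM in HFD TertCi. The HFD Tert libraries lay above all HFD mCherry libraries, and HFD TertCi overlapped with both.

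Igfbp4, which blocks IGF action until the protease PAPP-A cuts it, stood at 551, 860.3 and 566 CPM in SD mCherry and at 399.8, 1044 and 1189 CPM in HFD mCherry. In HFD Tert it stood at 718, 737 and 854 CPM and in HFD TertCi at 464, 1189 and 687 CPM. The group means, 659 to 878 CPM, lay well inside the range of HFD mCherry alone.

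Igfbp5, a binding protein that attaches to matrix, stood at 444, 401 and 131 CPM in SD mCherry and at 196, 407 and 448 CPM in HFD mCherry. HFD Tert gave 457, 505 and 556 CPM, above each HFD mCherry library, and HFD TertCi 236, 661 and 459.7 CPM.

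The first comparison asked what the high-fat diet did in the mCherry genotype. Igf2r and Igfbp7 had higher and Igfbp2 and Igfbp3 lower means on the high-fat diet, by factors of 1.90, 1.77, 0.292 and 0.518, and none of the 10 genes passed the test. The log2 differences (HFD mCherry minus SD mCherry, ± SE) were 0.93 ± 0.31 for Igf2r, 0.82 ± 0.30 for Igfbp7, -1.77 ± 0.78 for Igfbp2 and -0.95 ± 0.36 for Igfbp3. Their adjusted p-values were 0.124, 0.147, 0.2 and 0.162 (edgeR quasi-likelihood test with Benjamini-Hochberg adjustment). The remaining 6 differences lay between -0.15 (Igf1r) and 0.46 (Igf1).

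With edgeR, 0 of 10 were called, against 0.0479% of all genes tested. At an unadjusted p under 0.05 there were 4 of 10, against 24.1% of all genes, and 1 of 10 had groups that did not overlap, against 25.5%. DESeq2 called 1 of 10, Igf2r (adjusted p = 0.0495, with a range of 0.00764 to 0.425 over all alternatives), against 12.4% of all genes, and limma-voom called 0. In edgeR the median log2 difference of the 10 genes was 0.19 against -0.08 over all genes tested, and 6 of 10 were above 0 against 45.9% of all genes.

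Single libraries moved these values. Without HFD mCherry replicate 15 edgeR called 3 of 10, against 12.2% of all genes. Igf2r then stood at 1.27 (adjusted p = 0.00764), Igfbp7 at 1.05 (adjusted p = 0.0415) and Igfbp2 at -3.05 (adjusted p = 0.0317). Without SD mCherry replicate 2, the library with 186 CPM, Igfbp2 stood at only -0.67 (adjusted p = 0.591). Igfbp7 was called in 1 of 21 alternatives, and Igf2r in 3 of 21, one of them DESeq2 with all libraries. Over all alternatives the adjusted p of Igfbp7 ran from 0.0415 to 0.434 and that of Igfbp2 from 0.0281 to 0.59.

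Markers of other cells differed in the same libraries. The summed macrophage list was 574 to 958 CPM in SD mCherry and 1948, 4972 and 4176 CPM in HFD mCherry, and the progenitor list 3233 to 3932 CPM against 4289, 12010.0 and 11369.9 CPM. Replicates 17 and 20, high in both lists, were those high in Igf2r and Igfbp7. The largest members of the progenitor list in HFD mCherry were Dcn and Icam1 (means of 3238 and 2309 CPM). Its members Dpp4 and Dlk1 had lower means in HFD mCherry than in SD mCherry (66.1 against 86.2 CPM and 2.91 against 7.67 CPM). The other members of that list had higher means. Over the 4 groups, the library with the most Igf2r had the highest macrophage list in 1 and the highest progenitor list in 1. The part of these lists in the differences was not tested. In bulk RNA a change in the number of cells of a type and a change in RNA per cell cannot be told apart.

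**Figure D2:**
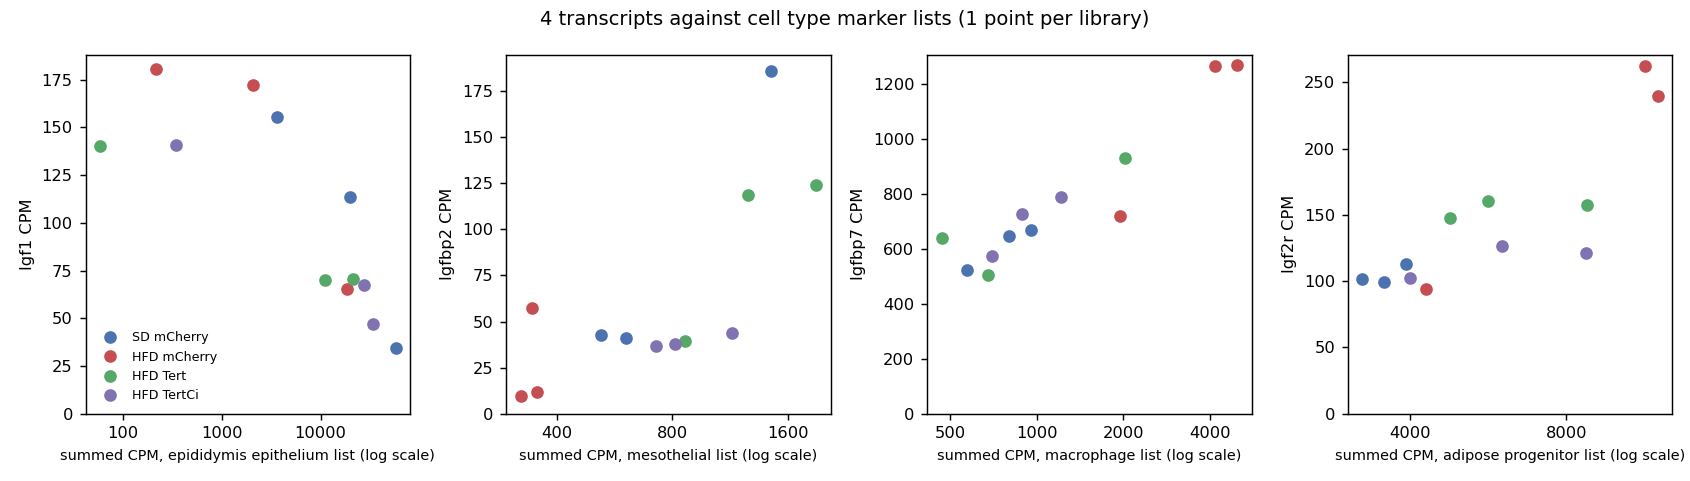
CPM of Igf1, Igfbp2, Igfbp7 and Igf2r (y axes, from 0) against the summed CPM of a marker list (x axes, log scale), with 1 point per library coloured by group. In each group Igf1 is highest in the library lowest in the epididymis list, and Igfbp7 and Igf2r are highest in HFD mCherry replicates 17 and 20, which also have the highest macrophage and progenitor lists. In 1 of 4 groups the library with the most Igf2r has the highest progenitor list.

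The second comparison asked what Tert did on the high-fat diet. Means of Igfbp2, Igfbp3, Igf2, Igfbp6 and Igfbp5 were higher in HFD Tert than in HFD mCherry, by factors of 3.58, 1.65, 1.59, 1.56 and 1.44, and that of Igfbp7 was lower by a factor of 0.638. None passed the test. The log2 differences (HFD Tert minus HFD mCherry, ± SE) were 1.84 ± 0.79 for Igfbp2 and -0.65 ± 0.30 for Igfbp7, with adjusted p = 0.284 and 0.316 (edgeR). Igfbp2 moved to 3.12 without HFD mCherry replicate 15 (adjusted p = 0.0994) and to 1.44 without HFD mCherry replicate 20. Leaving out replicate 15 also moved Igf2 from 0.67 to 0.35, Igf2r from -0.36 to -0.70 and Igfbp5 from 0.53 to 0.24. Those of Igfbp3, Igfbp6 and Igfbp5 were 0.73 ± 0.36, 0.64 ± 0.38 and 0.53 ± 0.49.

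In this comparison edgeR called 0 of 10, against 0% of all genes. An unadjusted p under 0.05 was found for 1 of 10 (Igfbp2), against 16.4% of all genes. Groups did not overlap for 2 of 10 (Igfbp3 and Igfbp5, both higher in HFD Tert), against 21.1%. DESeq2 and limma-voom each called 0 of 10, against 5.07% and 0% of all genes. With the epididymis list as a covariate edgeR called 1 of 10, Igfbp7, at -0.71 (adjusted p = 0.0488, with a range of 0.0488 to 0.633 over all alternatives), against 4.63% of all genes.

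The third comparison asked the same of TertCi. Igf2r and Igfbp7 had lower means in HFD TertCi than in HFD mCherry, by factors of 0.587 and 0.642, and both had the smallest unadjusted p-values of the 10 genes. Neither passed the adjusted threshold. Their log2 differences (HFD TertCi minus HFD mCherry, ± SE) were -0.77 ± 0.31 and -0.64 ± 0.30 (edgeR, adjusted p = 0.292 and 0.355). Igfbp2 stood at 0.58 ± 0.77 and Igf1 at -0.71 ± 0.60. Igfbp2 moved to 1.86 without HFD mCherry replicate 15 (adjusted p = 0.203) and to 0.19 without HFD mCherry replicate 20.

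Here too edgeR called 0 of 10, against 0.012% of all genes. An unadjusted p under 0.05 was found for 1 of 10 (Igf2r), against 14.7%, and groups did not overlap for 0 of 10, against 21.5%. DESeq2 and limma-voom each called 0, against 4.09% and 0.012%. Without HFD mCherry replicate 15 edgeR called Igf2r at -1.11 (adjusted p = 0.0276, with a range of 0.0168 to 0.707 over all alternatives), against 1.16% of all genes.

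Tert was then compared directly with TertCi, the active against the inactive form of the enzyme. Of the 10 genes, 7 had higher and 3 lower means in HFD Tert, while 48.2% of all genes had a log2 difference above 0. The largest difference was that of Igfbp2, 1.26 ± 0.77 on the log2 scale (HFD Tert minus HFD TertCi, SE, 95% interval -0.45 to 2.96). The intervals of the others all included 0. They were -0.23 to 1.26 for Igf2 and -0.27 to 1.09 for Igf2r, while that of Igfbp7 was -0.67 to 0.65.

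No gene of the 10 was called by edgeR (0 of 10, against 0% of all genes; each adjusted p = 1), DESeq2 or limma-voom (0 of 10 each, against 0.0539% and 0%). At an unadjusted p under 0.05 edgeR gave 0 of 10, against 1.36%. Groups did not overlap for 2 of 10, Igf2 and Igf2r, both higher in HFD Tert, against 5.13% of all genes.

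The mean of both knock-in groups was also set against HFD mCherry, which uses 6 libraries against the same 3 controls. Igfbp7 stood at -0.64 ± 0.25 (edgeR, adjusted p = 0.187) and Igf2r at -0.56 ± 0.26 (adjusted p = 0.249). edgeR called 0 of 10, against 0.168% of all genes, with 1 of 10 at an unadjusted p under 0.05, against 21%, and 0 of 10 without overlap, against 13%. DESeq2 and limma-voom called 0 of 10 each, against 9.23% and 0.0718%. Without HFD mCherry replicate 15 Igf2r was called at -0.90 (adjusted p = 0.0143, with a range of 0.0104 to 0.696 over all alternatives), against 4.04% of all genes. With the epididymis list as a covariate Igfbp7 was called instead, at -0.62 (adjusted p = 0.031, with a range of 0.031 to 0.516), against 8.08% of all genes. The F-test over the 4 groups called 0 of 10, against 0.012% of all genes (1 of 10 at an unadjusted p under 0.05, against 20.2%); DESeq2 and limma-voom called 0 of 10 there, against 13.8% and 0%. All comparisons with HFD mCherry share its 3 libraries, so their values are not independent of each other.

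**Figure D3:**
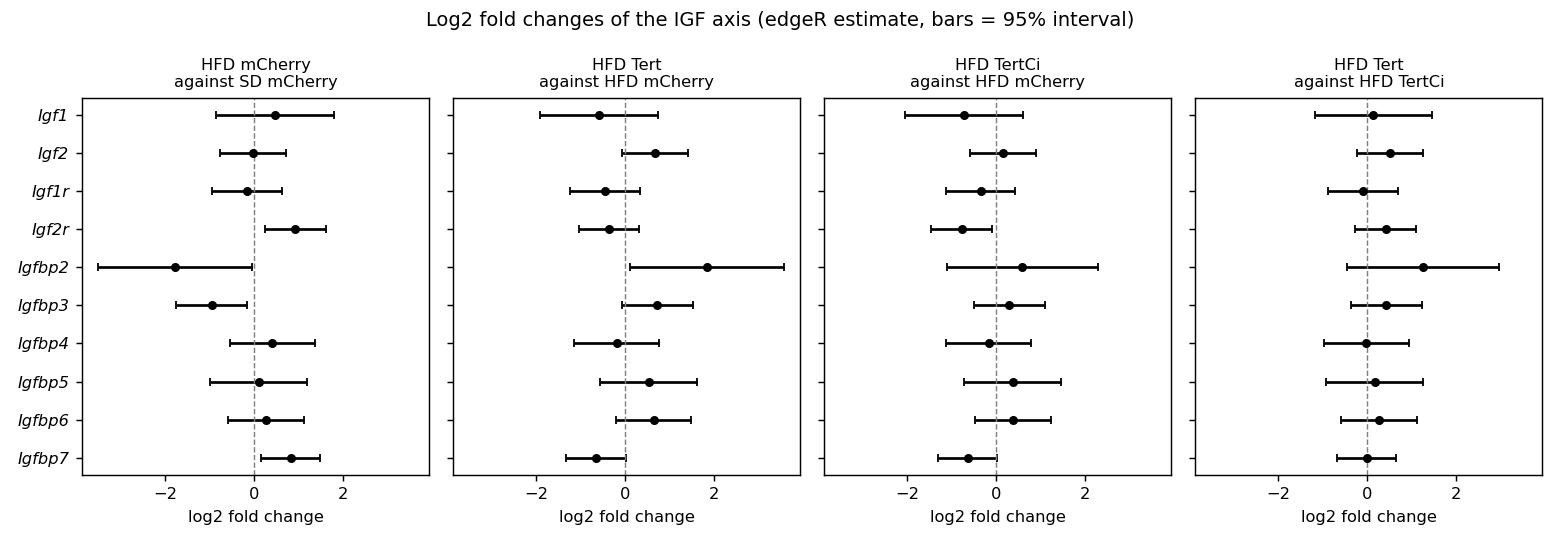
Log2 differences of the 10 genes in 4 comparisons (x axis), with 95% intervals from the edgeR fit as bars. Intervals exclude 0 for 4 genes in the diet comparison, 1 with Tert and 1 with TertCi, and none of them passes the adjusted threshold of 0.05.

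The make-up of the binding protein pool was described as the share of each gene in the summed FPKM of the 6 Igfbp genes. Igfbp7 held 45% ± 3.63 (SD, n = 3) of the SD mCherry pool and 57.0% ± 1.70 of the HFD mCherry pool. With Tert its share was 37.1% ± 6.98, and with TertCi 42.6% ± 5.82. Igfbp6 held 28.2% ± 1.36, 24.3% ± 2.28, 39.1% ± 7.05 and 35.6% ± 4.75 of the pool in the same order of groups. The ratio of Igfbp7 to Igfbp6 FPKM, chosen after its values were seen and so given without a test, was 1.76, 1.38 and 1.66 in SD mCherry and 2.56, 2.06 and 2.47 in HFD mCherry. It was 1.01, 0.660 and 1.28 in HFD Tert and 1.33, 0.879 and 1.46 in HFD TertCi. Each HFD mCherry library, replicate 15 included, lay above each of the 9 others. This ratio is taken inside a library, so no scaling of libraries touches it. The part of the cell mix in it was not tested.

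**Figure D4:**
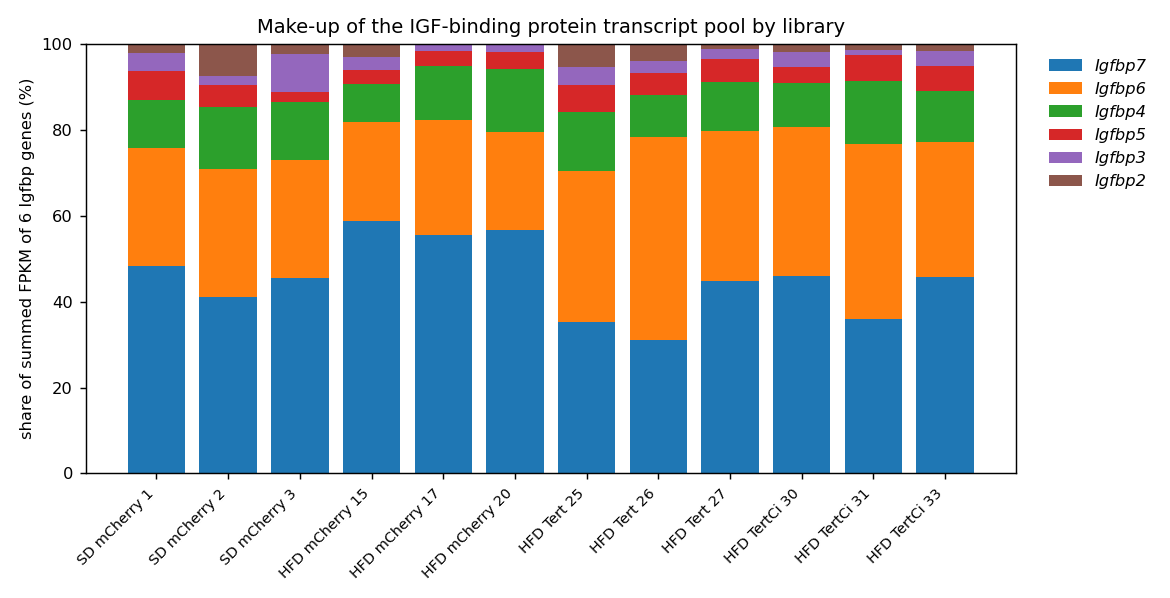
Share of each binding protein gene in the summed FPKM of 6 Igfbp genes (y axis, percent) in each library (x axis). The Igfbp7 segment is largest in the 3 HFD mCherry libraries (group mean 57.0%). The group mean of Igfbp6 is highest in HFD Tert (39.1%), where replicate 26 is at 47.2% and replicates 25 and 27 are each at 35.0%. HFD TertCi replicate 31, at 40.8%, lies above replicates 25 and 27 of HFD Tert.

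Summed binding protein FPKM was 1135 ± 199 (SD, n = 3) in SD mCherry and 1586 ± 495 in HFD mCherry, against 1534 ± 302 with Tert and 1387 ± 399.6 with TertCi. Per unit of ligand FPKM this came to 75.3 ± 26.6, 83.1 ± 17.7, 81.7 ± 25.5 and 92.4 ± 12.6. Igf1 made up 56.9% ± 17.3 of ligand FPKM in SD mCherry and 68.7% ± 1.62 in HFD mCherry, against 47.5% ± 9.90 with Tert and 52.9% ± 9.14 with TertCi. Of 20 exact permutation tests on these sums and ratios (2-sided, on the log2 scale), the lowest p was 0.0476, for the Igf1 share in the 6 knock-in libraries against 3 HFD mCherry libraries (log2 difference -0.47, adjusted p = 0.667). With 3 libraries against 3 such a test cannot go below 0.1, and no adjusted p was under 0.667.

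The genes most like each member over the 12 libraries were sought among 10598 genes by Pearson correlation of log2 CPM, as a description in which libraries share groups, depth and cell mix. Igfbp7 was closest to Cd47 (r = 0.98), Prkd3 (0.98) and Sepp1 (0.97), and Igf1 to Pcnx (0.98), Vezf1 (0.98) and Phactr2 (0.97). Igfbp2 was closest to the keratin gene Krt7 (0.97), then to Foxq1 (0.93) and Gsta4 (0.92). Igf2r was closest to the collagen receptor gene Ddr2 (0.97), Igfbp5 to Podxl (0.95), Igfbp6 to Rarres2 (0.95), which encodes the adipokine chemerin, and Igfbp4 to Szrd1 (0.95). Igf1r was closest to Slc16a11 (0.94), Igf2 to L1cam (0.93) and Igfbp3 to Fam149b (0.90). Among the 10 themselves the highest r over all libraries were those of Igfbp5 with Igfbp6 (0.79) and Igf2r with Igfbp7 (0.77), which were 0.71 and 0.74 on deviations from the group means. On those deviations the highest were Igf1 with Igfbp5 (0.93), Igfbp4 with Igfbp6 (0.84) and Igf2r with Igfbp4 (0.83). The lowest r over all libraries was that of Igfbp2 with Igfbp7 (-0.74, and -0.58 on the deviations). On the deviations the lowest was that of Igf1 with Igfbp3 (-0.83, and -0.72 over all libraries).

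Around the axis, edgeR called none of the genes in 4 lists in any of the 5 comparisons: 9 tested of 11 listed binding protein partners and proteases, 30 of 30 genes of the IGF signal relay, 8 of 8 of growth hormone signalling, and 12 of 12 of the Igf2 imprinted network and Igf2 mRNA binders. In the diet comparison 3 of 9, 6 of 30, 4 of 8 and 6 of 12 genes of these lists reached an unadjusted p under 0.05, against 24.1% of all genes. DESeq2 called 3, 2, 2 and 2 of them there, against 12.4%, and the signal relay lay below the share of all genes on both counts. The 4 median log2 differences were 0.67, 0.17, 0.48 and 0.43 against -0.08 over all genes. With Tert and with TertCi, which share the HFD mCherry libraries, 8 of 9 partners and proteases had log2 differences below 0, with medians of -1.47 and -0.81 against -0.05 and -0.04 over all genes, and 3 of 9 reached an unadjusted p under 0.05, all of them lower, against 16.4% and 14.7% of all genes. With Tert 1 of these 3 was Igfbp1, whose counts were few: 69, 0 and 18 in HFD mCherry libraries 15, 17 and 20, and 2, 0 and 0 in HFD Tert. With TertCi 1 of these 3 was the metalloprotease gene Adam28, named after its values were seen. Its HFD mCherry libraries were at 781, 0 and 0 CPM, with all counts in replicate 15, the library of the group with the highest epididymis list. In the signal relay 20 and 19 of 30 differences were below 0 (medians -0.17 and -0.20), with 4 and 3 genes lower and 1 higher at an unadjusted p under 0.05, shares near those of all genes. With Tert DESeq2 called 1 partner or protease (lower), 1 relay gene (higher) and 1 growth hormone gene (higher), against 5.07% of all genes. With TertCi it called 1 partner or protease (lower), 1 relay gene (lower) and 1 growth hormone gene (higher), against 4.09% of all genes.

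Among partners and proteases, Stc1, whose product inhibits PAPP-A, stood at 35.6, 31.8 and 45.7 CPM in SD mCherry and 80.3, 143 and 161 CPM in HFD mCherry. The groups did not overlap, as was found for 25.5% of all genes (log2 difference 1.76 ± 0.31, edgeR adjusted p = 0.0652). Adam12, a metalloprotease that cuts Igfbp3 and Igfbp5, stood at 8.40, 9.02 and 3.94 CPM against 34.0, 119 and 155 CPM (3.85 ± 0.77, edgeR adjusted p = 0.0659). In the knock-in groups it was at 8.93, 6.99 and 35.1 CPM (HFD Tert) and 8.42, 20.6 and 12.2 CPM (HFD TertCi), and their mean against HFD mCherry gave -2.75 ± 0.57 (edgeR adjusted p = 0.056). Htra3, a serine protease that also cuts binding proteins, was at 143, 196 and 56.7 CPM against 159, 647 and 609.6 CPM on the diet (adjusted p = 0.117). Like Igf2r, all of these had their lowest high-fat diet control value in replicate 15. On the diet DESeq2 called Stc1 (adjusted p = 4.59e-05), Adam12 (adjusted p = 1.03e-05) and Htra3 (adjusted p = 0.0217), against 12.4% of all genes. It also called Adam12 as lower with Tert (DESeq2 adjusted p = 0.011), against 5.07% of all genes.

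Igfbp1, the acute binding protein of liver, is on this list, and its counts were chosen for mention after they were seen. SD mCherry libraries had 314, 804 and 17 counts and HFD mCherry libraries 69, 0 and 18. HFD Tert libraries had 2, 0 and 0 and HFD TertCi libraries 42, 0 and 1. The diet difference was -3.51 ± 1.80 (edgeR adjusted p = 0.252). Counts came from SD mCherry replicates 1 and 2 above all, and every group overlapped with HFD mCherry.

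In the signal relay, Irs2, a docking protein below the insulin and IGF1 receptors, stood at 74.7, 88.9 and 111 CPM in HFD mCherry. It was at 42.4, 26.5 and 23.2 CPM in HFD Tert and 28.3, 18.9 and 35.3 CPM in HFD TertCi, so that all 6 knock-in libraries lay below the controls. The mean of both knock-in groups differed by -1.66 ± 0.45 (edgeR adjusted p = 0.0976, DESeq2 adjusted p = 0.0128). In that comparison DESeq2 called 9.23% of all genes, and 13% had groups that did not overlap. SD mCherry spread from 24.6 to 174 CPM over the same range. Grb14, an adaptor that inhibits the insulin receptor, was at 12.5, 15.8 and 10.1 CPM in SD mCherry and 3.48, 2.53 and 2.03 CPM in HFD mCherry (-2.26 ± 0.47, edgeR adjusted p = 0.0659). It was at 9.98, 12.7 and 3.53 CPM in HFD Tert and 8.26, 5.15 and 8.12 CPM in HFD TertCi.

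In growth hormone signalling, Cish, a feedback inhibitor induced by STAT5, was even within groups. SD mCherry gave 66.2, 65.8 and 70.3 CPM and HFD mCherry 49.2, 73.5 and 63.6 CPM. HFD Tert gave 134, 113 and 99.1 CPM and HFD TertCi 120.2, 127 and 114 CPM. All 6 knock-in libraries lay above all 6 mCherry libraries. The mean of both knock-in groups differed from HFD mCherry by 0.92 ± 0.17 (edgeR adjusted p = 0.0546, DESeq2 adjusted p = 7.49e-06). DESeq2 called 9.23% of all genes there. Against the HFD mCherry libraries alone, groups did not overlap for 13% of all genes, with the knock-in libraries higher for 6.01%. For the split of 6 knock-in against 6 mCherry libraries the share of all genes was not computed. Stat5a was at 34.7, 27 and 32.5 CPM in SD mCherry and 57.4, 172 and 144 CPM in HFD mCherry (1.99 ± 0.48, edgeR adjusted p = 0.0729). Jak2 gave 1.21 ± 0.36 in that comparison (adjusted p = 0.096).

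Of the imprinted network, Meg3 stood at 52.6, 41.5 and 14.9 CPM in SD mCherry and 88.9, 219.8 and 312 CPM in HFD mCherry. These groups did not overlap, as was found for 25.5% of all genes (2.51 ± 0.69, edgeR adjusted p = 0.0869). Igf2bp2, which encodes an Igf2 mRNA-binding protein, gave 1.48 ± 0.38 (adjusted p = 0.0761). Igf2 itself gave -0.03 ± 0.34 in the same comparison.

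**Figure D5:**
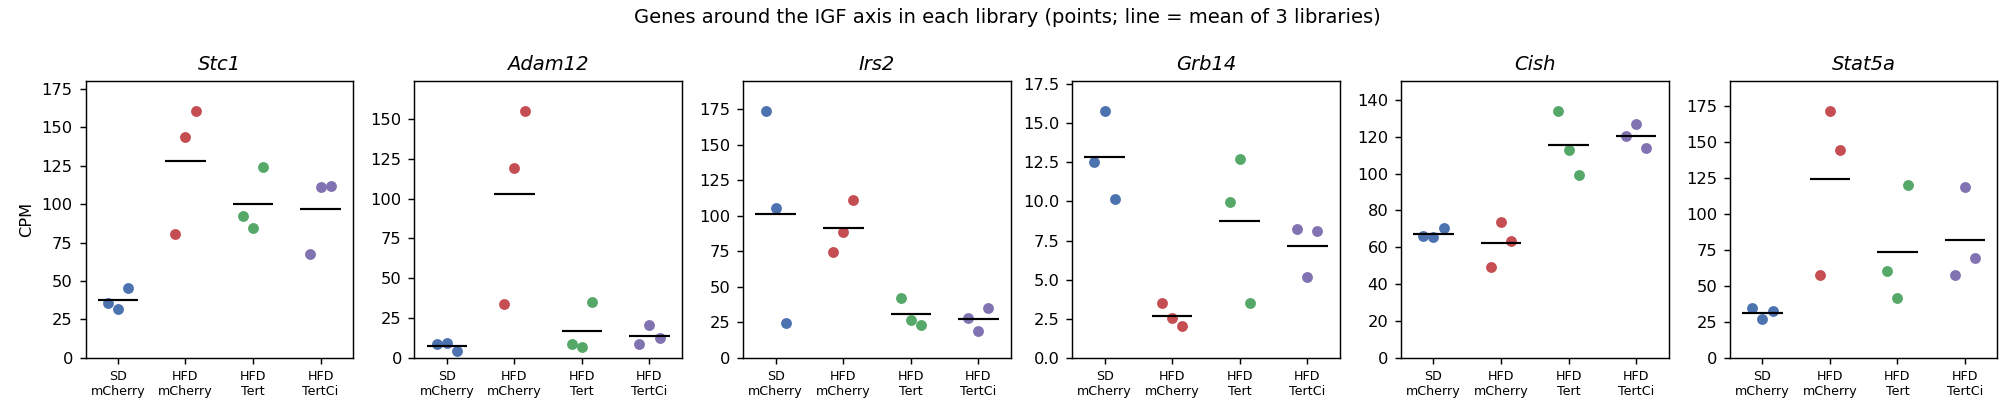
CPM of 6 genes around the IGF axis in each library (y axes, from 0), by group (x axes); points are libraries and the line is the mean of 3. The 6 knock-in points of Cish lie above the mCherry points and those of Irs2 below the HFD mCherry points, while Stc1, Adam12 and Stat5a have their lowest HFD mCherry point in replicate 15.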

How the data were processed

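RNA-seq of 12 adipose stromal vascular fraction libraries was used. For each library the authors deposited raw counts of reads for 24422 gene symbols, per the file headers. RNA was poly-T selected, per the labels' protocols. Reads were mapped to mm10 and counted with featureCounts 1.6.4 among tools that include Subread and SAMtools, per the submitters' processing notes. The annotation, aligner settings and use of strand are not given in the sources used here, so overlapping genes may share reads.

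Groups came from the sample labels. Counts were filtered with filterByExpr (16713 genes), scaled by TMM (factors 0.854 to 1.15) and fitted in 1 quasi-likelihood model with robust dispersion (edgeR 4.0.16, R 4.3.3; common biological coefficient of variation 0.536). Tests were 2-sided, adjusted over all genes, and called at an adjusted p under 0.05. CPM uses the scaled library, and FPKM divides it by the union exon length of GENCODE M21. Alternatives were DESeq2 1.42.0, limma-voom 3.58.1, other filters and scalings, a covariate, only the groups compared, and each library left out. The covariate was the mean log2 CPM of the 10 genes of the epididymis list that passed the filter. Scripts were tested on simulated data.

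The 10 genes and all lists were chosen with earlier results of these data known. Named were all 10 genes, list genes with the 3 smallest p-values per list and comparison (mean of at least 1 CPM), and the 3 most correlated genes for each (mean of at least 10 CPM, prior count 2), of which the text gives those that bear on a result.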

Additional observations from a re-analysis of the deposited data

How the results depend on the processing

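No paired analysis was possible because no replicate number occurs in more than 1 group. The number of genes of the axis called was recomputed under 21 alternatives. It was 0 of 10 for Tert against TertCi in all of them. In the diet comparison it was 1 with DESeq2 and 3 (Igf1r, Igf2r and Igfbp2) without SD mCherry replicate 3 and HFD mCherry replicate 15 together, an alternative chosen after seeing the data; leaving out single libraries gave 0 to 3, with the 3 only without HFD mCherry replicate 15. For Tert it was 1 (Igfbp7) with the epididymis list as a covariate. Leaving out single libraries gave 0 to 1 for TertCi, for the mean of both knock-in groups and for the F-test, the 1 being Igf2r without HFD mCherry replicate 15 each time, and leaving out both libraries gave 1, 1 and 2, with Igf2r in each and Igf1r in the F-test. For the mean of both knock-in groups the covariate gave 1 (Igfbp7 at -0.62, adjusted p = 0.031, range 0.031 to 0.516). The cause was not tested.

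Of 1050 log2 differences, 40 turned sign, all of them uncalled. In the diet comparison these were Igfbp5 (-0.17 with library size only, -0.16 with the covariate, -0.27 to 0.40 with single libraries left out), Igf2 (0.00293 with only the groups compared, 0.19 without both libraries, -0.28 to 0.29) and Igf1r (-0.60 to 0.17). For Tert they were Igf1r (0.00475 without both, -0.66 to 0.00424) and Igfbp4 (-0.54 to 0.092). For TertCi they were Igfbp4 (0.000652 with the covariate, -0.61 to 0.11), Igf2 (-0.16 without both, -0.16 to 0.40), Igf1r (0.10 without both, -0.56 to 0.10), Igfbp5 (-0.00854 to 0.68) and Igfbp6 (-0.0155 to 0.62). For Tert against TertCi they were Igfbp4 (0.0756 with limma-voom, -0.29 to 0.42), Igf1 (-0.11 with the covariate, -0.28 to 0.71), Igfbp5 (-0.15 to 0.54) and Igfbp7 (-0.28 to 0.17). For the mean of both knock-in groups they were Igf1r (0.0534 without both, -0.61 to 0.0530) and Igfbp4 (-0.53 to 0.10). Scaling by library size only moved the median of all genes by -0.20 in the diet comparison and 0.10 for TertCi. The number of all genes called in the diet comparison went from 8 in edgeR to 2069 with DESeq2, 2082 without HFD mCherry replicate 15 and 686 without HFD Tert replicate 27. Each gene of the axis had at least 161 counts in every library.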
